A study of Homo sapiens with 60 samples.

Results

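Bupleuri Radix, the dried root of Bupleurum and a herb of Korean medicine known for its saikosaponins, was given as a hot-water extract to A549, an established human lung adenocarcinoma line. The comparison set 3 libraries from cells kept for 24 h with the extract at its high dose of 500 µg/mL against 3 libraries from cells kept for 24 h with DMSO, the vehicle. These 6 libraries were taken by their dose and treatment labels from 60 in the series. The 17268 genes tested passed a low-count filter over the 57 libraries fitted together, and 15755 passed it in the 6 libraries alone. Cells given the same extract at 100 µg/mL (medium dose) and 20 µg/mL (low dose), and cells given Cimicifugae Rhizoma water extract at 500 µg/mL, are used only to place the high dose, each with 3 libraries at 24 h. The sample labels give 0.1% DMSO for vehicle and the design text gives 2%, which could not be settled, and the labels do not say whether extract-treated cells also received DMSO. Bupleuri, Cimicifugae and vehicle samples carry one batch label but different set labels, so a difference between sets and an effect of extract cannot be told apart against vehicle or between the extracts, whereas the 3 Bupleuri doses share a label. The labels do not say that replicates were separate cultures, and the p-values given here therefore reflect library-to-library spread that may be technical.

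Several regulators named here work as switches. The aryl hydrocarbon receptor (AhR) is a transcription factor that binds planar compounds from plants and smoke, moves to the nucleus and turns on genes of the CYP1 family and its own brakes. ID proteins are short-lived inhibitors of basic helix-loop-helix factors and are classical targets of bone morphogenetic protein (BMP) signalling through SMAD factors. NR4A genes encode orphan nuclear receptors that are induced within minutes to hours by cyclic AMP and other stimuli, and PTGS2 encodes the inducible cyclooxygenase that feeds prostaglandin synthesis in inflamed tissue and in many lung tumours.

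Total expected counts were 24316160 to 27872494 in Bupleuri high-dose libraries and 18894751 to 26324279 in vehicle libraries, within 17793655 to 30188211 over the series. Of 8 markers of an epithelial line, 7 were at 1 CPM or more in both groups, their summed level being 15000 to 15600 CPM at the high dose and 15400 to 16200 CPM in vehicle. No endothelial marker of 5 reached 1 CPM in either group, and the leukocyte genes PTPRC, CD3E and MS4A1 and the fibroblast gene DCN had no count in either. Of 7 leukocyte and 7 fibroblast markers, 2 each were at 1 CPM or more in both groups. Summed levels were 8.04 to 9.16 CPM at the high dose and 6.34 to 8.60 CPM in vehicle for the leukocyte list, and 37.6 to 42.4 CPM at the high dose and 34.6 to 35.8 CPM in vehicle for the fibroblast list, and their part in the results was not tested. Mitochondrially encoded genes held 9.06% ± 0.765 of counts at the high dose and 8.30% ± 0.342 in vehicle (SD, n = 3 each; two-sided exact permutation p = 0.1, the smallest that 3 against 3 allows).

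At the high dose 123 genes differed from vehicle, 78 higher and 45 lower, which is 0.712% of the genes tested. Among the genes named by rule, the deepest falls were in ID4 and ATOH8, in the orphan receptors NR4A1 and NR4A3 and in PTGS2, and the clearest rises were in the AhR targets CYP1A1, CYP1B1 and TIPARP and in the BMP antagonist GREM1. A gene was called where the quasi-likelihood test of edgeR gave a p under 0.05 after Benjamini-Hochberg adjustment over all genes tested, and every adjusted p given for a gene is from that test unless another tool is named. Levels are in CPM, reads scaled to a common library size by TMM, and are not corrected for transcript length, and differences are log2 folds ± standard error of the first-named group over the second. Most differences were small, 93 of the 123 being under 1.5-fold, and the median log2 fold was 0.41 among the genes called higher and -0.35 among those called lower, against 0.016 over all genes tested. In 26.6% of all genes tested the 3 high-dose and 3 vehicle libraries did not overlap, and in all 123 called genes they did not. Protein-coding genes made up 73 of the 78 higher and 42 of the 45 lower. The count depended on single libraries, being 51, 76 and 78 without high-dose replicate 1, 2 or 3 and 52 and 62 without vehicle replicate 1 or 2, and 39 of the 123 genes were called whichever of the 6 libraries was left out. It was 1024 when the 6 libraries were fitted alone and 198 with DESeq2 in place of edgeR.

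**Figure D1:**
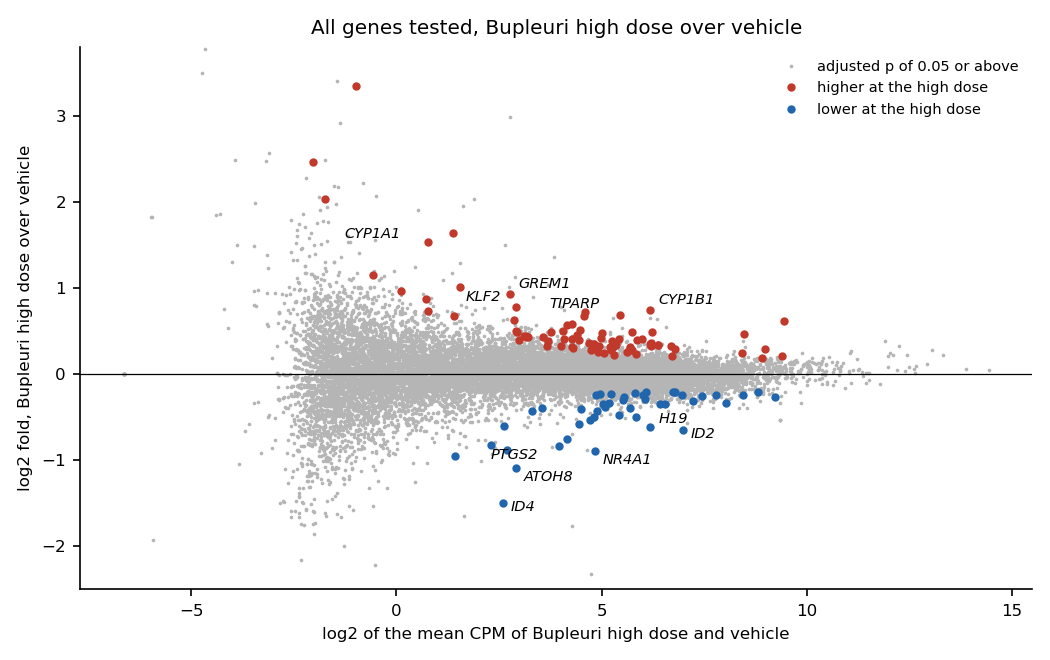
Each point is a gene tested, with the log2 of its mean CPM over Bupleuri high dose and vehicle on the x axis and the log2 fold of Bupleuri high dose over vehicle on the y axis; red and blue points are the 78 genes called higher and the 45 called lower. ID4 lies lowest among the called genes at -1.50, most called genes lie within 1 of 0, and the largest called rises are in genes of low level (34 genes tested lie outside the range drawn).

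The AhR group showed rises in 3 of 7 targets tested (of 8 in the list), against 0.452% of all genes called higher, with a list median log2 fold of 0.44 against 0.016 over all genes. CYP1B1 (chromosome 2, 38066973 to 38109902 on GRCh38), an enzyme that oxidises oestrogens and polycyclic hydrocarbons, had 81.7, 95.5 and 93.5 CPM at the high dose against 55.0, 52.7 and 53.9 CPM in vehicle. All high-dose libraries lay above all vehicle libraries, and the log2 fold was 0.74 ± 0.10 (adjusted p = 1.15e-05). TIPARP (chromosome 3, 156673235 to 156706770), an ADP-ribosyltransferase that restrains the receptor, had 50.2, 53.3 and 58.2 CPM against 33.6, 33.1 and 33.5 CPM in vehicle, without overlap (0.69 ± 0.11, adjusted p = 0.000163). CYP1A1 (chromosome 15, 74719542 to 74725610), the classical AhR-induced monooxygenase, was scarce at 2.26, 2.5 and 2.85 CPM at the high dose and 0.914, 1.11 and 0.524 CPM in vehicle. The lowest high-dose library was well above the highest vehicle library (1.54 ± 0.20, adjusted p = 5.7e-06). The feedback repressor AHRR did not pass, at 3.53, 4.15 and 3.65 CPM against 2.78, 2.95 and 2.62 CPM in vehicle (0.44 ± 0.18, adjusted p = 0.36), although its libraries did not overlap. NQO1, ALDH3A1 and UGT1A6, detoxifying enzymes that the receptor shares with other regulators, had log2 folds of 0.05, 0.01 and -0.08 and did not pass (adjusted p = 0.916, 0.989 and 0.952), and CYP1A2 was not tested for low counts.

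The transcript of the receptor itself went the other way. AHR had 31.9, 38 and 37.1 CPM at the high dose against 50.2, 49.7 and 49.6 CPM in vehicle, with no overlap and a log2 fold of -0.48 ± 0.12 (adjusted p = 0.0269). That call did not hold when any 1 of the 6 libraries was left out. The adjusted p was then 0.268, 0.0535 and 0.0724 without high-dose replicate 1, 2 or 3 and 0.122, 0.101 and 0.0869 without vehicle replicate 1, 2 or 3. Its partners ARNT and ARNT2 did not pass (log2 folds -0.03 and 0.10, adjusted p = 0.958 and 0.845).

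The stretches directly upstream of a RefSeq transcription start are shown for CYP1A1 and TIPARP, which rose, and for PTGS2, which fell. They were searched for the core motifs GCGTG (recognised by AhR with ARNT) and TGACG (the core of the cyclic AMP response element). Each stretch is 250 bases from RefSeq on GRCh38.p14, written on the gene's own strand up to the base before the start. Capitals mark a match to either motif on either strand (CACGC and CGTCA are the reverse complements). CYP1A1 is chr15:74725529-74725778 (minus strand), TIPARP chr3:156674340-156674589 (plus strand, the first of 3 starts listed) and PTGS2 chr1:186680424-186680673 (minus strand). These RefSeq starts differ from the GENCODE gene bounds given above. The TIPARP stretch lies wholly inside its GENCODE gene, which starts at 156673235. The CYP1A1 stretch lies inside its GENCODE gene up to 74725610, a part that holds the marked GCGTG.
CYP1A1: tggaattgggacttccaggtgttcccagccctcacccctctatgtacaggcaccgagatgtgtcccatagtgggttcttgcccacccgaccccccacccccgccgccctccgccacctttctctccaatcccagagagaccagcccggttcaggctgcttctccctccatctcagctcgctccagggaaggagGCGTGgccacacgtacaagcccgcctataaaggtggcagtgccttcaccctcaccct
TIPARP: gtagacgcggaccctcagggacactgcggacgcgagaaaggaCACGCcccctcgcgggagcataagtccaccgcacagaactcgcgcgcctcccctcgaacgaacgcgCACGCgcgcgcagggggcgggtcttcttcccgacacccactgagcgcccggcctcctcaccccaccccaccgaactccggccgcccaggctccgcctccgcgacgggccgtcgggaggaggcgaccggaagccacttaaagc
PTGS2: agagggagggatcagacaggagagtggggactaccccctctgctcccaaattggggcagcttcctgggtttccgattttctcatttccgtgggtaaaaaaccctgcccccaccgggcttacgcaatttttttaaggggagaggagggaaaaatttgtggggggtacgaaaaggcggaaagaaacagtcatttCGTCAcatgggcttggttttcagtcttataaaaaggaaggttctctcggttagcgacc
GCGTG stands once upstream of CYP1A1, its first base 57 bases before the start, and 2 times as CACGC upstream of TIPARP, at 208 and 142 bases before the start. PTGS2 holds CGTCA 58 bases before the start and no GCGTG, and neither CYP1A1 nor TIPARP holds TGACG in this window. Among 35116 promoter windows of the same length, 32.2% hold GCGTG and 21.2% hold TGACG on either strand. A match is therefore common and is given as a description only, and binding at the marked matches was not tested.

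ID4 and ATOH8 fell more than any other named gene. ID4 (chromosome 6, 19837386 to 19840684), an inhibitor of helix-loop-helix factors, had 2.87, 3.45 and 3.10 CPM at the high dose against 8.72, 9.19 and 8.74 CPM in vehicle. All high-dose libraries lay far below all vehicle libraries, with a log2 fold of -1.50 ± 0.13 (adjusted p = 2.07e-10). ATOH8 (chromosome 2, 85751344 to 85788066), a helix-loop-helix factor induced by BMP receptors, had 4.23, 4.75 and 5.33 CPM against 9.94, 9.71 and 11.1 CPM in vehicle (-1.10 ± 0.11, adjusted p = 1.77e-08), again without overlap. ID2 (chromosome 2, 8678845 to 8684453), an abundant family member, had 101, 94.9 and 96.6 CPM against 152, 151 and 158 CPM in vehicle, a narrow spread on both sides (-0.65 ± 0.10, adjusted p = 0.000143). An annotated antisense gene overlaps ID4 and ID2, and the strand setting of the counting is not given, so reads of such partners could not be told apart. Annotated genes also overlap CYP1B1, TIPARP, AHR, NR4A1, JUNB, PPP1R13L and other named genes, and the same limit holds for them.

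ID3 and ID1 did not pass. ID3 had 110, 107 and 108 CPM at the high dose against 155, 159 and 168 CPM in vehicle, without overlap (-0.56 ± 0.15, adjusted p = 0.0521). It sat at the edge of the threshold in the main fit, and its call depended on the setting. The adjusted p was 0.0389 under RLE size factors, 0.0461 with mitochondrial genes removed before scaling and 0.012 in DESeq2. Without the low-count filter it was 0.0148, without Citri medium replicate 1 0.00405 and on the 6 libraries alone 2.32e-05. With a covariate for GC content or transcript length, computed from the same counts, it was 6.9e-07 or 1.29e-14. ID3 missed the threshold with the replicate block (0.0533) and with any 1 of the 6 libraries left out (0.131 to 0.177). ID1 had 144, 130 and 134 CPM against 155, 164 and 185 CPM in vehicle, a smaller gap of -0.30 ± 0.17 (adjusted p = 0.591). The inhibitory SMADs, which shut the same pathway down, also did not pass, SMAD6 at -0.20 ± 0.11 (adjusted p = 0.582) and SMAD7 at 0.13 ± 0.06 (adjusted p = 0.525). Altogether 3 of 12 ID genes and BMP-SMAD targets were called lower, against 0.261% of all genes tested, and none higher. The list median was -0.21.

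Among BMP ligands and antagonists 1 of 10 tested was called, the antagonist GREM1, higher, against 0.452% of all genes. GREM1 (chromosome 15, 32717974 to 32745107), whose protein binds BMP2 and BMP4 outside the cell, had 8.99, 7.63 and 9.93 CPM at the high dose against 4.76, 4.10 and 5.13 CPM in vehicle. No library overlapped (0.93 ± 0.12, adjusted p = 5.7e-06), and an antisense gene overlaps it. The ligand gene BMP4 had 3.86, 4.57 and 3.94 CPM against 4.83, 4.65 and 5.92 CPM in vehicle, close but not overlapping (-0.31 ± 0.14, adjusted p = 0.41). The antagonist BMPER (-0.07, adjusted p = 0.874) and the 9 receptor and SMAD genes tested did not pass, with 1 of the 9 at an unadjusted p under 0.05 in edgeR and 0 called by DESeq2.

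NR4A1 (chromosome 12, 52022832 to 52059507), an orphan receptor linked to growth and survival, had 20.9, 19.6 and 18.8 CPM at the high dose against 36.6, 36.0 and 38.1 CPM in vehicle. The groups were far apart and tight, with a log2 fold of -0.90 ± 0.08 (adjusted p = 5.86e-11), the smallest adjusted p among the genes called. NR4A3 (chromosome 9, 99821855 to 99866891) had 4.23, 4.64 and 4.71 CPM against 8.83, 8.67 and 7.49 CPM in vehicle (-0.88 ± 0.14, adjusted p = 0.000171), without overlap. NR4A2 had 2.5, 2.29 and 2.59 CPM against 3.27, 3.95 and 3.67 CPM in vehicle and did not pass (-0.56 ± 0.16, adjusted p = 0.0776), though its libraries did not overlap either. The other genes of the list that cyclic AMP is known to induce did not pass, among them CREM (-0.05), SIK1 (-0.03), PDE4B (-0.13) and PER1 (0.05), and 2 of 10 tested were called lower, against 0.261% of all genes.

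In the prostaglandin pathway 2 of 11 genes tested were called lower, against 0.261% of all genes. PTGS2 (chromosome 1, 186671791 to 186680427) had 10.5, 11.7 and 11.2 CPM at the high dose against 19.7, 18.9 and 21.3 CPM in vehicle. The highest high-dose library was well below the lowest vehicle library (-0.84 ± 0.11, adjusted p = 3.96e-06). PLA2G4A (chromosome 1, 186828953 to 186988981), the cytosolic phospholipase that frees arachidonic acid and whose gene lies close to PTGS2, had 19.9, 21.6 and 22.6 CPM against 28.2, 30.3 and 34.5 CPM in vehicle, without overlap (-0.53 ± 0.09, adjusted p = 0.00032). The constitutive cyclooxygenase PTGS1 (-0.11), the prostaglandin E synthases PTGES (0.04), PTGES2 (0.20) and PTGES3 (0.01), the degrading enzyme HPGD (0.02) and the receptors PTGER2 (-0.20) and PTGER4 (0.05) did not pass.

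Metabolic and hormone-responsive genes followed with single members. PDK4 (chromosome 7, 95583499 to 95596491), the kinase that closes pyruvate dehydrogenase during fasting, had 11.5, 13.8 and 14.1 CPM at the high dose against 21.0, 22.1 and 23.8 CPM in vehicle. No library overlapped (-0.76 ± 0.10, adjusted p = 1.15e-05). SGK1, a serum- and glucocorticoid-induced kinase, had 39.6, 41.5 and 41.4 CPM against 50.2, 51.7 and 49.2 CPM in vehicle (-0.30 ± 0.06, adjusted p = 0.00139). These were the 2 called of 12 glucocorticoid-induced genes tested, whose list median was 0.046. Over all genes tested, 0.261% were called lower and 0.452% higher. The standard reporters FKBP5 (0.13), TSC22D3 (0.16) and PER1 (0.05) did not pass. Of 12 fatty acid oxidation and PPAR targets PDK4 alone was called, with ANGPTL4 at 0.12 and CPT1A at 0.04. INSIG1, which retains the sterol sensor SCAP in the endoplasmic reticulum, was the 1 called of 21 cholesterol genes and was slightly higher (0.22 ± 0.05, adjusted p = 0.0284), a call lost without vehicle replicate 1 (0.307) or 2 (0.111), without high-dose replicate 1 (0.141), 2 (0.114) or 3 (0.0557), and without the low-count filter (0.622).

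H19, an imprinted long non-coding RNA, had 55.1, 55.5 and 60.6 CPM at the high dose against 86.3, 83.0 and 93.7 CPM in vehicle. The groups were separate (-0.62 ± 0.11, adjusted p = 0.000453), while its imprinted neighbour IGF2 had 5.54, 5.52 and 4.78 CPM against 4.83, 4.13 and 5.76 CPM in vehicle, with overlap (0.11 ± 0.18, adjusted p = 0.881). RNF43, a ligase gene that removes Wnt receptors from the surface and is itself a Wnt target, had 3.61, 3.45 and 3.58 CPM against 6.28, 5.61 and 6.96 CPM in vehicle (-0.82 ± 0.17, adjusted p = 0.00486). It was the 1 called of 8 Wnt targets tested, against 0.261% of all genes called lower. The list median was -0.20, AXIN2 stood at -0.65 (adjusted p = 0.0865), and other genes on either strand overlap RNF43. HHIPL2 had 4.60, 4.82 and 5.33 CPM against 7.31, 8.05 and 7.02 CPM in vehicle (-0.60 ± 0.10, adjusted p = 0.000392), without overlap.

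Among the secreted and zinc-handling genes the falls were smaller. The fibrinogen chain gene FGB had 130, 133 and 134 CPM at the high dose against 161, 161 and 172 CPM in vehicle (-0.32 ± 0.06, adjusted p = 0.00497), while FGA (-0.27, adjusted p = 0.0551) and FGG (-0.31, adjusted p = 0.0776) stopped short. Thus 1 of 13 genes of the acute-phase list was called, against 0.261% of all genes called lower. FGB missed the threshold without high-dose replicate 1 (0.0531) or vehicle replicate 3 (0.0588). SLC30A1, the exporter of zinc at the cell surface, had 73.9, 74.5 and 77.4 CPM against 96.6, 98.2 and 93.6 CPM in vehicle (-0.35 ± 0.08, adjusted p = 0.0196). Its call was lost in 5 of the 6 fits that left out a library, namely without high-dose replicate 1 (0.13), 2 (0.0867) or 3 (0.0532) and without vehicle replicate 1 (0.0961) or 2 (0.111). GALNT4, which starts mucin-type sugar chains, fell by 0.58 ± 0.13 on the log2 scale (adjusted p = 0.011), shares its exons with a read-through gene of POC1B, and lost its call without high-dose replicate 1 (0.14) or 2 (0.0604) and without vehicle replicate 1 (0.0961) or 3 (0.0623).

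NF-kB subunits of the non-canonical arm were higher. RELB (chromosome 19, 45001430 to 45038198), the partner of the p52 subunit, had 23.0, 19.9 and 20.7 CPM at the high dose against 14.9, 13.9 and 14 CPM in vehicle. All high-dose libraries were above all vehicle libraries (0.57 ± 0.11, adjusted p = 0.00161). NFKB2 (chromosome 10, 102394110 to 102402529), the precursor gene of p52, had 84.3, 78.8 and 80.0 CPM against 63.2, 62.0 and 65.6 CPM in vehicle (0.35 ± 0.07, adjusted p = 0.00172). TNFAIP2, a target gene of tumour necrosis factor, had 379, 372 and 371 CPM against 317, 311 and 316 CPM in vehicle (0.25 ± 0.05, adjusted p = 0.0114), a call lost without high-dose replicate 1 (0.0864), vehicle replicate 1 (0.0597) or 2 (0.0758), or the low-count filter (0.326). These were 3 of 17 genes tested, against 0.452% of all genes called higher, and the list median was 0.19 against 0.016 over all genes. The canonical subunits NFKB1 (0.09) and RELA (0.11) and the feedback inhibitors NFKBIA (0.19 ± 0.10, adjusted p = 0.551) and TNFAIP3 (0.14) did not pass, and neither did any of 11 chemokine and cytokine genes in edgeR, of which 3 had an unadjusted p under 0.05 and 1 was called by DESeq2.

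Among AP-1 and EGR factors, genes of the immediate-early response, 2 of 10 tested were called, both Jun family members and both higher, against 0.452% of all genes, and the number ranged from 0 to 4 over the alternative settings. JUNB had 86.2, 87.3 and 86.9 CPM at the high dose against 56.0, 61.6 and 67.5 CPM in vehicle. The high-dose libraries were almost level and the vehicle libraries were spread out below them (0.49 ± 0.10, adjusted p = 0.00261), and the call was lost without vehicle replicate 1 (0.0624). JUN had 44.4, 41.2 and 43.2 CPM against 32.8, 35.7 and 34.7 CPM in vehicle (0.32 ± 0.07, adjusted p = 0.0152). The JUN call was lost without high-dose replicate 1 (0.127) or 3 (0.0672), without vehicle replicate 1 (0.156) or 3 (0.0522), and without the low-count filter (0.159). FOS (-0.28), EGR1 (-0.55) and FOSL1 (0.25) did not pass (adjusted p = 0.569, 0.294 and 0.124). KLF2, a zinc-finger factor best known from endothelium, had 11.5, 8.12 and 8.83 CPM against 4.99, 5.72 and 5.97 CPM in vehicle (0.77 ± 0.17, adjusted p = 0.00882). It was the 1 called of 10 Kruppel-like factors, against 0.452% of all genes called higher. The KLF2 call was lost without high-dose replicate 1 (0.168) or vehicle replicate 1 (0.113).

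Single genes of YAP signalling and cell adhesion moved as well. ANKRD1, a target of the co-activator YAP, was lower, with 11.7, 9.43 and 9.31 CPM at the high dose against 12.8, 13.8 and 13.5 CPM in vehicle (-0.40 ± 0.10, adjusted p = 0.0324). That call was lost without high-dose replicate 2 (0.184) or 3 (0.228), without vehicle replicate 1 (0.0786), 2 (0.179) or 3 (0.105), and without the low-count filter (0.0865). Of the same list of TGF-beta and YAP targets, CCN1 (0.29, adjusted p = 0.0521), CCN2 (0.17) and TAGLN (0.28) did not pass. CDH4, the retinal cadherin gene, had 37.2, 38.6 and 36.6 CPM against 28.9, 26.0 and 25.9 CPM in vehicle (0.48 ± 0.07, adjusted p = 0.00011). It was the 1 called of 11 cadherin and epithelial-mesenchymal genes, against 0.452% of all genes called higher, CDH1 and CDH2 standing at -0.15 and 0.03.

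The rule for the largest rises added genes of mixed function. ZNF579 and ZNF580, zinc-finger genes on chromosome 19, rose by 0.72 ± 0.14 (adjusted p = 0.00425) and 0.67 ± 0.16 (0.0236). PPP1R13L, whose product iASPP binds p53 and RelA, had 9.07, 9.21 and 8.43 CPM at the high dose against 5.41, 6.39 and 5.39 CPM in vehicle, without overlap (0.63 ± 0.11, adjusted p = 0.000818). ADAMTS10, a secreted metalloproteinase gene, EPOP, which encodes a Polycomb-associated protein, and FJX1 rose by 0.58 ± 0.12, 0.52 ± 0.10 and 0.50 ± 0.12 (adjusted p = 0.00824, 0.00509 and 0.0258). Of these, ZNF579 lost its call without high-dose replicate 1 (0.0582) or vehicle replicate 1 (0.0849) and EPOP without the same 2 libraries (0.114 and 0.1). ADAMTS10 lost it without high-dose replicate 2 (0.0648) or vehicle replicate 1 (0.0631). ZNF580 lost it without high-dose replicate 1 (0.177) or 3 (0.106) and vehicle replicate 1 (0.217) or 2 (0.0944), and FJX1 without high-dose replicate 1 (0.197) or 2 (0.0648) and vehicle replicate 1 (0.211) or 2 (0.254). MTATP6P1, a nuclear copy of a mitochondrial gene that may share reads with MT-ATP6, had 748, 802 and 985 CPM against 455, 610 and 592 CPM in vehicle and just passed (0.61 ± 0.16, adjusted p = 0.0434). It did not pass when any 1 of the 6 libraries was left out (0.0615, 0.0822 and 0.297 without high-dose replicate 1, 2 or 3 and 0.343, 0.0758 and 0.0869 without vehicle replicate 1, 2 or 3) with RLE size factors (0.0545) or with mitochondrial genes removed before scaling (0.0508).

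In 20 of the 38 lists edgeR called no member. These included 21 NRF2 targets, with 2 at an unadjusted p under 0.05 and 0 called by DESeq2, 14 ATF4 stress genes (6 and 1), 15 endoplasmic reticulum chaperones (0 and 0), 10 heat shock genes (2 and 0), 15 p53 targets (3 and 0), 16 DNA replication genes (3 and 2), 13 mitosis genes (1 and 0) and 12 hypoxia and glycolysis genes (2 and 0). Over all genes tested 9.98% had an unadjusted p under 0.05. The list medians of log2 fold in these 8 lists lay between -0.088 and 0.122. The 15 mitochondrially encoded genes had a median of 0.21, the highest of the 20 lists, with 1 at an unadjusted p under 0.05 and 0 called by DESeq2.

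**Figure D2:**
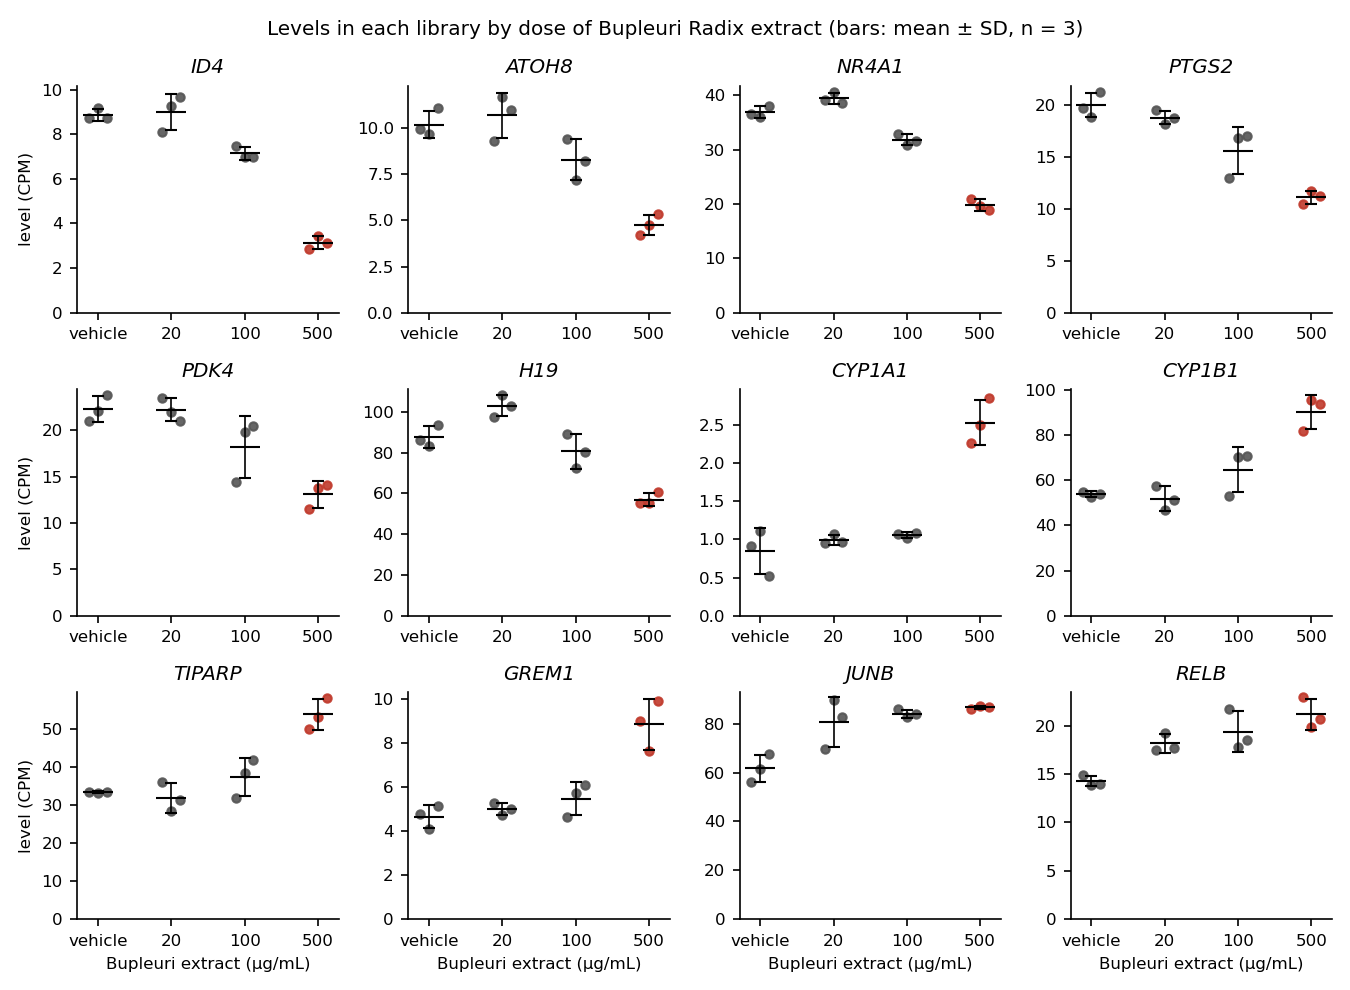
CPM in each library (points) of vehicle and of Bupleuri extract at 20, 100 and 500 µg/mL for 12 named genes, with mean ± SD of 3 libraries; the high dose is red. ID4 stands at 8.88, 9.0, 7.14 and 3.14 CPM on average from vehicle upward, while JUNB stands at 61.7, 80.8, 84.1 and 86.8 CPM.

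Lower doses placed these genes into different courses. Against vehicle, edgeR called 0 genes at the medium dose and 0 at the low dose, while 1756 (10.2%) and 1366 (7.91%) reached p under 0.05 before adjustment, and DESeq2 called 7 and 2. Between the high and the low dose 61 genes differed (0.353% of those tested), 22 higher and 39 lower at the high dose, and the count was 29, 37 and 37 without high-dose replicate 1, 2 or 3, and 40 without low-dose replicate 2 or 3. This comparison shares the high-dose libraries with the comparison against vehicle, so the values of both are set side by side and are not independent of each other.

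In a first course the level at the low dose stayed near that of vehicle. ID4 averaged 8.88 ± 0.266 CPM in vehicle, 9.0 ± 0.813 at the low, 7.14 ± 0.284 at the medium and 3.14 ± 0.289 at the high dose (SD, n = 3 each). Its log2 fold was -1.52 ± 0.13 over the low dose (adjusted p = 1.1e-10) beside -1.50 over vehicle. NR4A1 averaged 36.9 ± 1.06 CPM in vehicle and 39.4 ± 1.09, 31.8 ± 1.02 and 19.8 ± 1.07 CPM from the low to the high dose, and its log2 fold over the low dose was -1.0 ± 0.08 (adjusted p = 1.69e-12). PTGS2 ran 20.0, 18.8, 15.6 and 11.1 CPM, PDK4 22.3, 22.2, 18.2 and 13.1 CPM, and ID2 153, 154, 137 and 97.5 CPM from vehicle to the high dose. The folds of the high over the low dose were -0.76 ± 0.11, -0.75 ± 0.10 and -0.66 ± 0.10 (adjusted p = 1.92e-05, 1.7e-05 and 0.000106) for those genes. H19 was above vehicle at the low dose (97.4, 108 and 103 CPM), a difference that did not pass (0.23 ± 0.10, adjusted p = 0.618), so its fold of the high over the low dose was larger, -0.85 ± 0.11 (adjusted p = 1.87e-06).

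The AhR targets had the same course upward. CYP1B1 averaged 53.9 ± 1.17 CPM in vehicle, 51.8 ± 5.45 at the low, 64.6 ± 9.90 at the medium and 90.2 ± 7.48 at the high dose, with a fold over the low dose of 0.80 ± 0.10 (adjusted p = 3.63e-06). At the medium dose its libraries had 53.2, 70.1 and 70.6 CPM, the lowest of which lay among the vehicle libraries. TIPARP averaged 33.4, 31.9, 37.4 and 53.9 CPM and CYP1A1 0.848, 0.997, 1.06 and 2.53 CPM from vehicle to the high dose, and their folds over the low dose were 0.75 ± 0.11 and 1.35 ± 0.20 (adjusted p = 2.85e-05 for each). GREM1 and CDH4 also stood near vehicle at the low dose (5.00 and 26.2 CPM) and had folds of the high over the low dose of 0.82 ± 0.12 and 0.52 ± 0.07 (adjusted p = 2.85e-05 and 1.94e-05).

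In a second course the level at the low dose lay nearer to the high dose than to vehicle. JUNB had 69.6, 89.8 and 82.9 CPM at the low dose, all above the vehicle libraries, and its fold of the high over the low dose was 0.10 ± 0.09 (adjusted p = 1). KLF2 averaged 5.56 CPM in vehicle and 8.30, 8.49 and 9.50 CPM from the low to the high dose (high over low 0.19 ± 0.16, adjusted p = 1). ZNF579 ran 18.3, 27.8, 29.6 and 30.0 CPM (high over low 0.11 ± 0.14, adjusted p = 1). EPOP ran 18.3, 23.5, 26.2 and 26.2 CPM (0.16 ± 0.10, adjusted p = 1) and RELB 14.3, 18.2, 19.4 and 21.2 CPM (0.22 ± 0.10, adjusted p = 0.907). None of these passed against vehicle at the low dose, where the log2 folds of JUNB, KLF2, ZNF579, EPOP and RELB were 0.39, 0.58, 0.60, 0.36 and 0.35 (adjusted p = 0.417, 0.417, 0.417, 0.446 and 0.482). Further named genes called against vehicle also did not pass between the high and the low dose. Among them were NFKB2 (0.18), JUN (0.23), TNFAIP2 (0.18), PPP1R13L (0.27), AHR (-0.30), SLC30A1 (-0.17) and ANKRD1 (-0.26). Their adjusted p was 0.47, 0.22, 0.222, 0.689, 0.624, 0.927 and 0.574. ATOH8, NR4A3, PLA2G4A, RNF43, HHIPL2, SGK1, FGB and INSIG1 passed in both comparisons. A high-over-low fold that does not pass does not show that the 2 doses were alike.

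**Figure D3:**
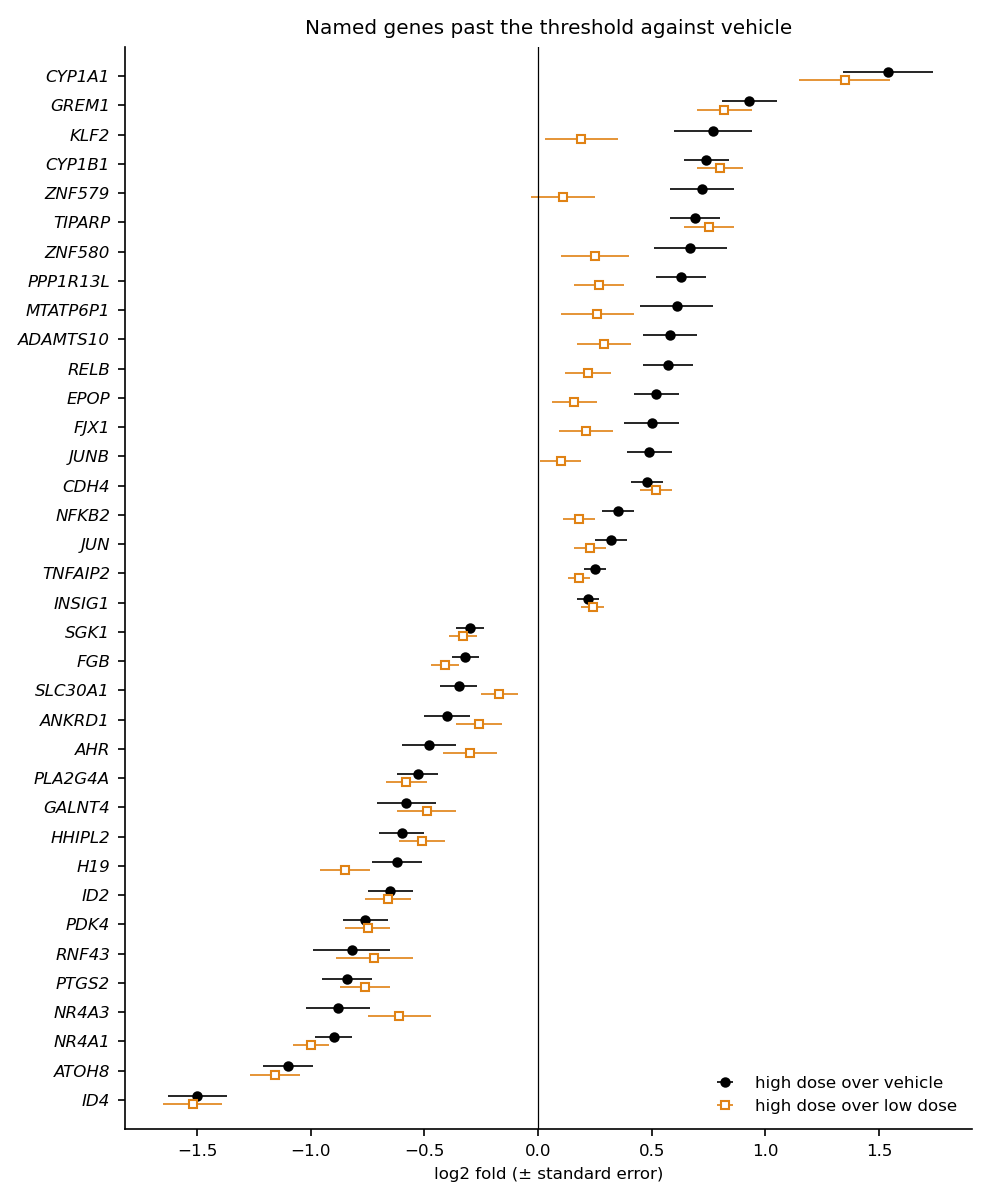
Log2 fold ± standard error of Bupleuri high dose over vehicle (black circles) and over Bupleuri low dose (orange squares) for 36 named genes called against vehicle, ordered by the first. The squares lie beside the circles for ID4, ATOH8, NR4A1, CYP1B1 and TIPARP and close to 0 for KLF2, ZNF579 and JUNB; both contrasts use the same high-dose libraries.

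The GC content of transcripts moved with the comparisons against vehicle. Protein-coding genes were split into 4 equal groups by the GC content of their longest annotated transcript. The median log2 fold of the high dose over vehicle was -0.067, -0.014, 0.05 and 0.112 from the lowest to the highest GC group. That of the low dose over vehicle was -0.084, -0.028, 0.053 and 0.142. Between the high and low doses the medians were 0.015, 0.015, -0.001 and -0.025. For the high dose of Bupleuri over that of Cimicifugae they were -0.033, 0.0, 0.028 and 0.04. Genes called higher numbered 5, 11, 20 and 37 and genes called lower 20, 11, 6 and 5 across these groups. Median GC content was 57.2% among all genes called higher, 43.9% among those called lower and 48.6% over all genes tested. JUNB (64.9%), KLF2 (65.2%), RELB (65.4%), ZNF579 (65.9%) and EPOP (63.9%) had GC-rich transcripts, whereas CYP1B1 (44.1%), TIPARP (42.8%), GREM1 (39.8%) and ID4 (47.0%) did not. Of the first course, NR4A1 (59.8%) and CDH4 (59.0%) also fell in the highest GC group, and the non-coding H19 had 63.4%. These values lay below those of the second-course genes given here, and the part of GC content in the 2 courses was not tested. Chromosome 19, which is GC-rich, carried 11 of the 78 rises and 1 of the 45 falls among 1198 genes tested there, whose median log2 fold was 0.075. Over all 17268 genes tested, 0.452% were called higher and 0.261% lower.

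Each library's GC balance, the mean log2 CPM of the highest GC group minus that of the lowest, was -1.04 ± 0.0387 at the high dose and -1.23 ± 0.0466 in vehicle (SD, n = 3 each; two-sided exact permutation p = 0.1, the smallest possible). The balance was also added to the model, an alternative chosen after seeing the data. It was computed from the same counts and did not overlap between high-dose and vehicle libraries. A part of GC content in the calls and an effect of the extract therefore cannot be told apart by this model. The same holds for the balance of long and short transcripts given below. The log2 folds of JUNB, KLF2, RELB and ZNF579 were then 0.35, 0.58, 0.40 and 0.50 and stayed past the threshold (adjusted p = 0.0014, 0.0244, 0.000852 and 0.00299), whereas ZNF580 (0.47, adjusted p = 0.0573) and FJX1 (0.37, adjusted p = 0.058) did not. Those of ID4, NR4A1, CYP1B1 and TIPARP were -1.60, -0.99, 0.91 and 0.87 in that model, farther from 0 than without it. Others lay nearer to 0, NR4A3 at -0.66, PTGS2 at -0.71, PDK4 at -0.64 and CYP1A1 at 1.43. AHR at -0.30 and SLC30A1 at -0.20 moved by more than 1.5 times, and all of these stayed past the threshold (adjusted p = 0.0479 for AHR). Long transcripts also ran lower relative to short ones at the high dose than in vehicle, by a balance of 1.79 ± 0.0705 against 1.96 ± 0.0796 on the log2 scale (SD, n = 3 each; exact permutation p = 0.1), and 671 genes were called with that balance in the model. JUNB, KLF2, RELB, ID4 and AHR then had log2 folds of 0.43, 0.65, 0.48, -1.56 and -0.38 (adjusted p = 2.19e-05, 0.00027, 1.22e-05, 3.11e-13 and 2.63e-05).

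**Figure D4:**
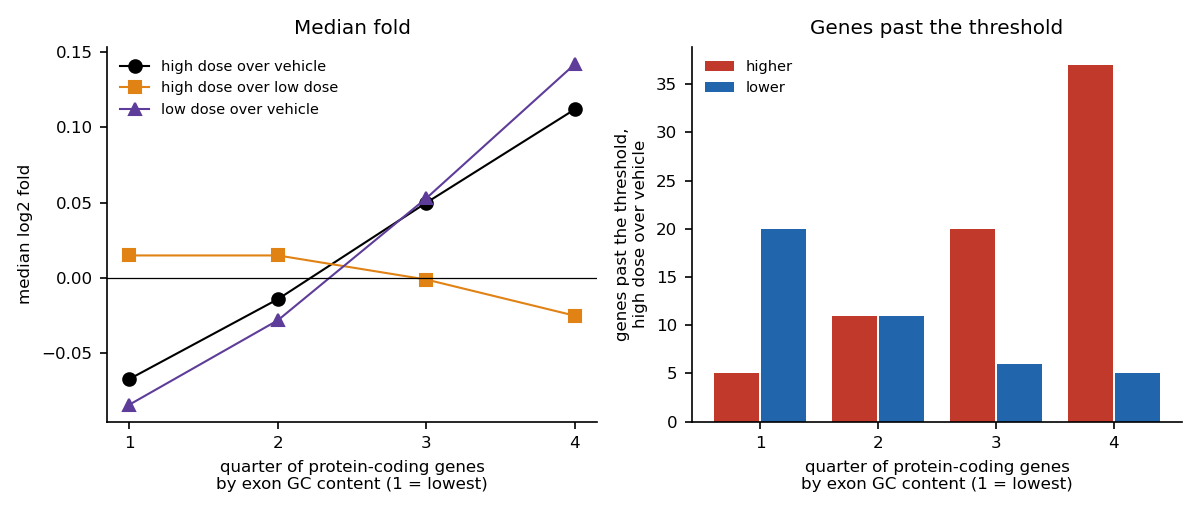
Left, median log2 fold of protein-coding genes in 4 groups by GC content of the longest transcript (labelled exon GC content) for Bupleuri high dose over vehicle, high over low dose and low dose over vehicle. Right, numbers of genes called higher and lower at the high dose against vehicle in each group: 37 of the highest group were higher and 20 of the lowest were lower.

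Cimicifugae extract at 500 µg/mL is another herbal extract at the same dose, from a set that it shares with Citri extract. It was chosen as the single-herb extract at that dose whose comparison with vehicle was most like that of Bupleuri. Likeness between the extracts was therefore part of the choice and is not a result. Directly compared, 99 genes differed (0.573% of those tested), 73 higher and 26 lower in Bupleuri than in Cimicifugae cells. The count was 49 and 46 without Bupleuri replicate 1 or 3 and 59, 56 and 57 without Cimicifugae replicate 1, 2 or 3. For several leading genes no difference between the extracts was detected, and their levels are given side by side. ID4 averaged 3.14 ± 0.289 CPM in Bupleuri and 4.10 ± 0.312 CPM in Cimicifugae cells (-0.38 ± 0.14, adjusted p = 0.441), PTGS2 11.1 ± 0.605 and 12.4 ± 0.823 CPM (-0.15 ± 0.11, adjusted p = 1), and ID2 97.5 ± 3.30 and 93.4 ± 3.01 CPM (0.06 ± 0.10, adjusted p = 1; SD, n = 3 each).

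Of the 7 AhR targets tested, 3 were lower in Bupleuri than in Cimicifugae cells, against 0.151% of all genes, and AHRR (-0.51, adjusted p = 0.291), NQO1 (-0.11), ALDH3A1 (-0.12) and UGT1A6 (-0.04) did not pass. CYP1A1 had 2.26, 2.5 and 2.85 CPM in Bupleuri against 5.07, 5.20 and 5.42 CPM in Cimicifugae cells (-1.04 ± 0.17, adjusted p = 0.000153), CYP1B1 81.7, 95.5 and 93.5 CPM against 134, 144 and 140 CPM (-0.63 ± 0.10, adjusted p = 0.000211), and TIPARP 50.2, 53.3 and 58.2 CPM against 72.0, 74.0 and 71.4 CPM (-0.43 ± 0.11, adjusted p = 0.048). None of these libraries overlapped, as in 21.4% of all genes tested between the extracts. HMOX1, the haem-degrading enzyme gene, which did not pass against vehicle, had 193, 187 and 178 CPM in Bupleuri against 289, 291 and 265 CPM in Cimicifugae cells (-0.60 ± 0.08, adjusted p = 1.85e-05). TM4SF20, ST8SIA4 and ANKS4B were lower by similar amounts, at -0.59 ± 0.08, -0.58 ± 0.11 and -0.57 ± 0.12 (adjusted p = 1.54e-05, 0.00216 and 0.0109). These genes averaged 68.8, 7.7 and 4.89 CPM in Bupleuri, 104, 11.6 and 7.26 CPM in Cimicifugae cells and 74.7, 8.42 and 5.33 CPM in vehicle. In Bupleuri cells they did not pass against vehicle (adjusted p = 0.696, 0.778 and 0.818).

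The genes of 2 secreted proteins were higher in Bupleuri than in Cimicifugae cells. IGFBP3, which carries insulin-like growth factors, had 199, 183 and 194 CPM in Bupleuri against 123, 130 and 130 CPM in Cimicifugae cells (0.59 ± 0.05, adjusted p = 1.7e-10), and the cytokine gene IL11 had 34.0, 30.3 and 33.2 CPM against 21.8, 20.6 and 20.9 CPM (0.62 ± 0.08, adjusted p = 9.67e-06). IL11 stood at 31.4 ± 1.04 CPM in vehicle, so its Bupleuri level overlapped vehicle and its Cimicifugae level lay below it. RBKS, which encodes ribokinase, and MARCH4 were higher by 0.84 ± 0.15 and 0.68 ± 0.10 (adjusted p = 0.00121 and 8.55e-05). They averaged 6.44 and 15.2 CPM in Bupleuri, 3.59 and 9.46 CPM in Cimicifugae cells and 5.53 and 13.3 CPM in vehicle. IGFBP3 averaged 171 CPM in vehicle. In Bupleuri cells RBKS, MARCH4 and IGFBP3 did not pass against vehicle (adjusted p = 0.686, 0.55 and 0.13). The Jun and NF-kB genes differed as well, with JUN at 0.37 ± 0.07, RELB at 0.49 ± 0.10 and NFKB2 at 0.42 ± 0.07 (adjusted p = 0.00267, 0.00872 and 0.00012), whereas JUNB did not pass (0.32 ± 0.09, adjusted p = 0.141). Transcript GC content was 56.7% for JUN, 65.4% for RELB and 62.4% for NFKB2, and its part in these differences was not tested. NR4A1 was below vehicle in both extracts and higher in Bupleuri, with 20.9, 19.6 and 18.8 CPM against 15.9, 15.5 and 13.7 CPM in Cimicifugae cells (0.40 ± 0.08, adjusted p = 0.00326).

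**Figure D5:**
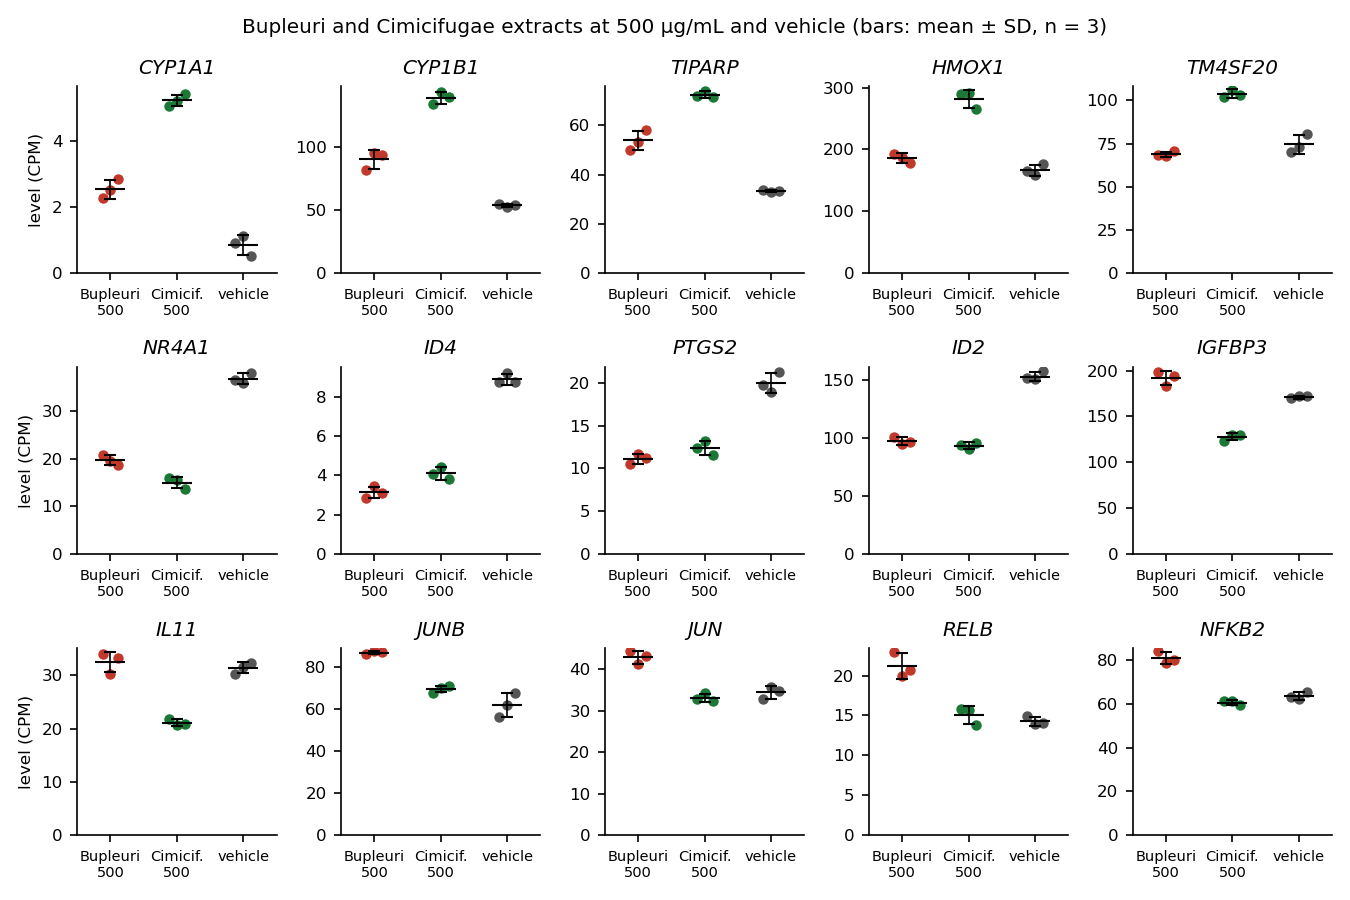
CPM in each library (points) with mean ± SD of 3 for Bupleuri at 500 µg/mL, Cimicifugae at 500 µg/mL and vehicle in 15 named genes. CYP1A1, CYP1B1 and TIPARP are intermediate in Bupleuri cells, ID4, PTGS2 and ID2 are low in both extracts, and IGFBP3 and IL11 are lower in Cimicifugae cells than in both other groups.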

How the data were processed

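RNA of A549 cells was measured by sequencing. Directional mRNA libraries were prepared, per the labels' protocols, from RNA whose integrity number exceeded 7, and were read as 100 bp paired ends on an MGIseq instrument. Per the submitters' processing notes, the tools were RSEM 1.3.3, STAR 2.7.3a, Trim Galore 0.6.5 and FastQC 0.11.9, with GRCh38. The deposited values were expected counts per gene, not normalized by the authors, and 9.37% of those used were not whole. The annotation release and strand setting are not given in the sources used here. Of 269 sample columns in the deposited table, 60 matched this series, and the remaining 209, of other samples, were set aside. Gene types, GC content and coordinates came from GENCODE 29, which may not be the release counted on, and 57055 of 60675 identifiers were found in it.

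For testing, these values were rounded to integers. A quasi-likelihood model (edgeR 4.0.16, R 4.3.3) was fitted to all 57 libraries in 19 groups of 3, so that the groups share the estimate of spread, after TMM scaling and edgeR's filterByExpr. It left 38 residual degrees of freedom and a biological coefficient of variation of 10.1%. The Benjamini-Hochberg method was applied to each comparison separately, at a threshold of 0.05, and a standard error was the absolute log2 fold divided by the root of the F statistic. CPM used the scaled library sizes. The scripts were tested on simulated data.

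Named genes were the 12 largest rises and falls past the threshold with 5 CPM or more in whichever group was higher and separate libraries, up to 4 called members of each of 38 lists, a fixed panel, and the 6 largest differences from Cimicifugae in each direction. Clone and LINC names were passed over. Members, lists and panel were chosen with earlier results of these data known, so their counts are not independent evidence. Alternatives were RLE size factors, DESeq2 1.42.0 on the same libraries, no low-count filter, only the 6 libraries compared, the replicate number as a block, each library left out, the transcript-length balance as a covariate, mitochondrial genes removed before scaling and the fit without Citri medium replicate 1. The GC balance as a covariate was added after seeing the data. Replicates differed by more than sampling noise in every pair (chi-square per degree of freedom 5.5 to 7.14 at the high dose and 2.82 to 5.5 in vehicle). The 3 Bojungikgi samples, 1 at each dose, did not enter the fit. Some genes that the rule names are not reported here.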

Additional observations from a re-analysis of the deposited data

How the results depend on the processing

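No called gene reversed direction in any of 15 alternative settings of the high dose against vehicle. Of the 123 genes called there, 32 were called in all 15 (18 higher, 14 lower), and so were 21 of the 37 named ones, among them ID4, ATOH8, ID2, NR4A1, NR4A3, PTGS2, PDK4, H19, CYP1A1, CYP1B1, TIPARP, GREM1, CDH4, RELB and NFKB2. None of the 15 settings removes the difference in set label between Bupleuri and vehicle. The count was 198 with DESeq2, 259 with the GC balance and 671 with that of transcript length as a covariate, 60 without the low-count filter, 1024 on the 6 libraries alone, 205 without Citri medium 1, and 51 to 86 with 1 library left out. Of the high over the low dose it was, in the same order, 113, 162, 255, 33, 41, 112 and 29 to 54, and of Bupleuri over Cimicifugae 134, 211, 434, 52, 430, 136 and 46 to 71. At the medium dose against vehicle, where edgeR called 0, it was 7 with DESeq2, 1 with the GC balance, 20 with the length balance, 2 without the filter, 5 without Citri medium 1 and 0 to 1 with 1 library left out. At the low dose it was 2 with DESeq2, 1 without the filter and 0 with any library left out. RLE size factors (135) and removal of mitochondrial genes (131) kept the main count within 1.5 times. The causes of these shifts were not tested, except that without the filter 36666 genes entered the adjustment. A fit that leaves 2 libraries in a group takes their spread from all groups.

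Same-numbered libraries did not deviate together (r = -0.181, 0.093 and -0.009 for the high dose and vehicle). With 3 libraries in each group this cannot tell whether a replicate number marks a shared culture or handling, which the labels do not say. With the replicate block the count was 133 for the high dose against vehicle, 63 for the high over the low dose, 102 against Cimicifugae and 0 at the other doses. Genes near 1 CPM, such as CYP1A1 in vehicle, rest on few reads.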

Other observations

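Genes outside the rule for naming, chosen after their values were seen, showed further differences between the high dose and vehicle. SLC2A3, a high-affinity glucose transporter gene, had 22.9, 22.6 and 24.0 CPM at the high dose against 32.0, 33.7 and 32.5 CPM in vehicle (-0.50 ± 0.07, adjusted p = 1.15e-05 in edgeR's quasi-likelihood test, as below), and HK1, a hexokinase gene, had 59.9, 57.7 and 62.0 CPM against 74.3, 72.2 and 73.7 CPM (-0.29 ± 0.07, adjusted p = 0.0392). Receptor genes went both ways. FGFR3 and NTRK3, receptor tyrosine kinase genes, were lower (-0.43 ± 0.10 and -0.35 ± 0.08, adjusted p = 0.0258 and 0.0267), while ROR1, a receptor for Wnt5a, and the Wnt receptor gene FZD2 were higher (0.41 ± 0.07 and 0.40 ± 0.09, adjusted p = 0.00084 and 0.0224). CAV1 and TPM1, which encode a caveolin and a tropomyosin, were slightly higher at 0.19 ± 0.05 and 0.20 ± 0.05 (adjusted p = 0.0384 and 0.0263), while PDLIM5, which encodes an actin-associated protein, was slightly lower at -0.25 (adjusted p = 0.0202). Each of HK1, FGFR3, NTRK3, FZD2, CAV1, TPM1 and PDLIM5 lost its call when at least 1 of the 6 libraries was left out, whereas SLC2A3, ROR1 and HEXIM1 kept theirs in all 6 such fits. HEXIM1, which holds the elongation factor P-TEFb inactive, had 204, 197 and 203 CPM at the high dose against 236, 234 and 249 CPM in vehicle, a small fall with little spread (-0.25 ± 0.04, adjusted p = 0.000263).

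The largest called log2 rises were in scarce transcripts. The processed pseudogenes AL157400.5 and UQCRFS1P1, which may share reads with their parent genes, stood at 1.15, 0.492 and 1.06 CPM against 0.0761, 0.0369 and 0.157 CPM in vehicle and at 4.31, 3.48 and 3.83 CPM against 0.228, 1.29 and 2.41 CPM in vehicle (3.35 ± 0.61 and 1.64 ± 0.41, adjusted p = 0.0012 and 0.0341). UQCRFS1P1 varied widely between vehicle libraries, and it averaged 4.20 CPM at the low dose.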
